A study of Mus musculus with 6 samples.

Results

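Amino acid transporters were followed in RNA from whole mouse colon 6 h after treatment with the cytokine interleukin-22 or an engineered variant of it. The set was chosen by name, as every gene annotated as protein coding whose symbol begins with Slc1a, Slc3a, Slc6a, Slc7a, Slc36a, Slc38a or Slc43a and a digit, and it held 62 of the 35275 genes in the deposited tables. The rule used names only, but it was set with earlier results of these data known. Of the 62 genes, 45 passed the filter on low counts and were tested, beside 15628 genes tested in all. One of the 62, Slc7a6os, shares the name only: it is an opposite-strand neighbour of Slc7a6 and is not a transporter.

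The 6 libraries came from colon of C57BL/6 mice in 3 groups of 2. The first group received phosphate-buffered saline (PBS), the second wild-type interleukin-22 (WT IL-22), and the third 22-B3, both proteins at 200 µg per mouse. The sex, age and genotype beyond the strain name were not given in the labels, nor was it said that the 2 libraries of a group came from separate animals. The p-values therefore rest on how far these libraries spread, and that spread may be technical.

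Interleukin-22 is made by lymphocytes of the gut wall and acts on epithelial cells, where it signals mainly through the transcription factor STAT3. Amino acids cross the colonic epithelium through carriers of several families, which differ in the amino acids they take and in whether they are driven by sodium, protons, membrane voltage or exchange. Some of them, the heteromeric exchangers, consist of a heavy chain of the SLC3 family, needed to reach the membrane, and a light chain of the SLC7 family, which does the transport. Cells that grow or lack amino acids often raise these carriers through ATF4, a transcription factor that binds the amino acid response element.

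Library totals ran from 17428528 to 22081904 counts, and mitochondrial genes held 1.85% to 2.35% of them. Socs3, a feedback inhibitor switched on by STAT3, was at 7.81 and 7.08 CPM (counts scaled to a common library size) with PBS, at 25.3 and 32.0 CPM with 22-B3, and at 248 and 254 CPM with WT IL-22. No pair of libraries was as close as the PBS pair: 26.2% of genes differed between them beyond counting noise, against 50.1% between the WT IL-22 libraries and 57.2% between the 22-B3 libraries. Replicate 1 of 22-B3 was nearest to replicate 1 of WT IL-22 (45.5% of genes), and replicate 2 of 22-B3 was nearest to the PBS libraries (49.5% and 50.0%). The colonic markers Car1 (610 to 1222 FPKM, the deposited scale per gene length) and Aqp8 (273 to 394 FPKM) were high in every library, and of 5 small-intestinal genes Sis, Lct and Apoa4 were at or below 0.113 FPKM, while Alpi (1.11 to 4.42 FPKM) and Fabp6 (5.84 to 13.1 FPKM) were detected in every library.

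In the PBS libraries a few carriers dominated. Per gene length, 2 of the 62 genes had a mean of at least 100 FPKM with PBS, 9 lay between 10 and 100, 19 between 1 and 10, and 32 below 1. The highest was Slc6a14, which imports neutral and cationic amino acids with sodium and chloride, at 202 FPKM ± 2.20 (SD, n = 2). The next was Slc6a8, the creatine transporter, at 100.2 FPKM ± 1.94 (SD, n = 2). They were followed by the glutamine exchanger Slc1a5 at 44.6 FPKM ± 1.03, by Slc38a10 at 23.3 ± 0.691, by Slc38a2 at 23.3 ± 2.96 and by the proton-coupled carrier Slc36a1 at 23.3 ± 0.783 (SD, n = 2 each). The last 3 did not differ beyond their spread. The heavy chain Slc3a2 (20.9 FPKM ± 2.5) and the taurine transporter Slc6a6 (18.6 FPKM ± 0.755) came next and overlapped (SD, n = 2 each).

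At the other end, the 17 genes that were not tested never exceeded 14 counts in a library. Slc6a5, Slc6a18 and Slc7a12 had 0 counts in all 6 libraries, which allows up to 0.136 to 0.172 CPM per library at a floor of 3 counts. Slc6a19, the neutral amino acid carrier of the small bowel, was scarce, between 1.35 and 2.52 CPM in the 6 libraries. So was Slc6a20a, an imino acid carrier, between 1.42 and 3.20 CPM.

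**Figure D1:**
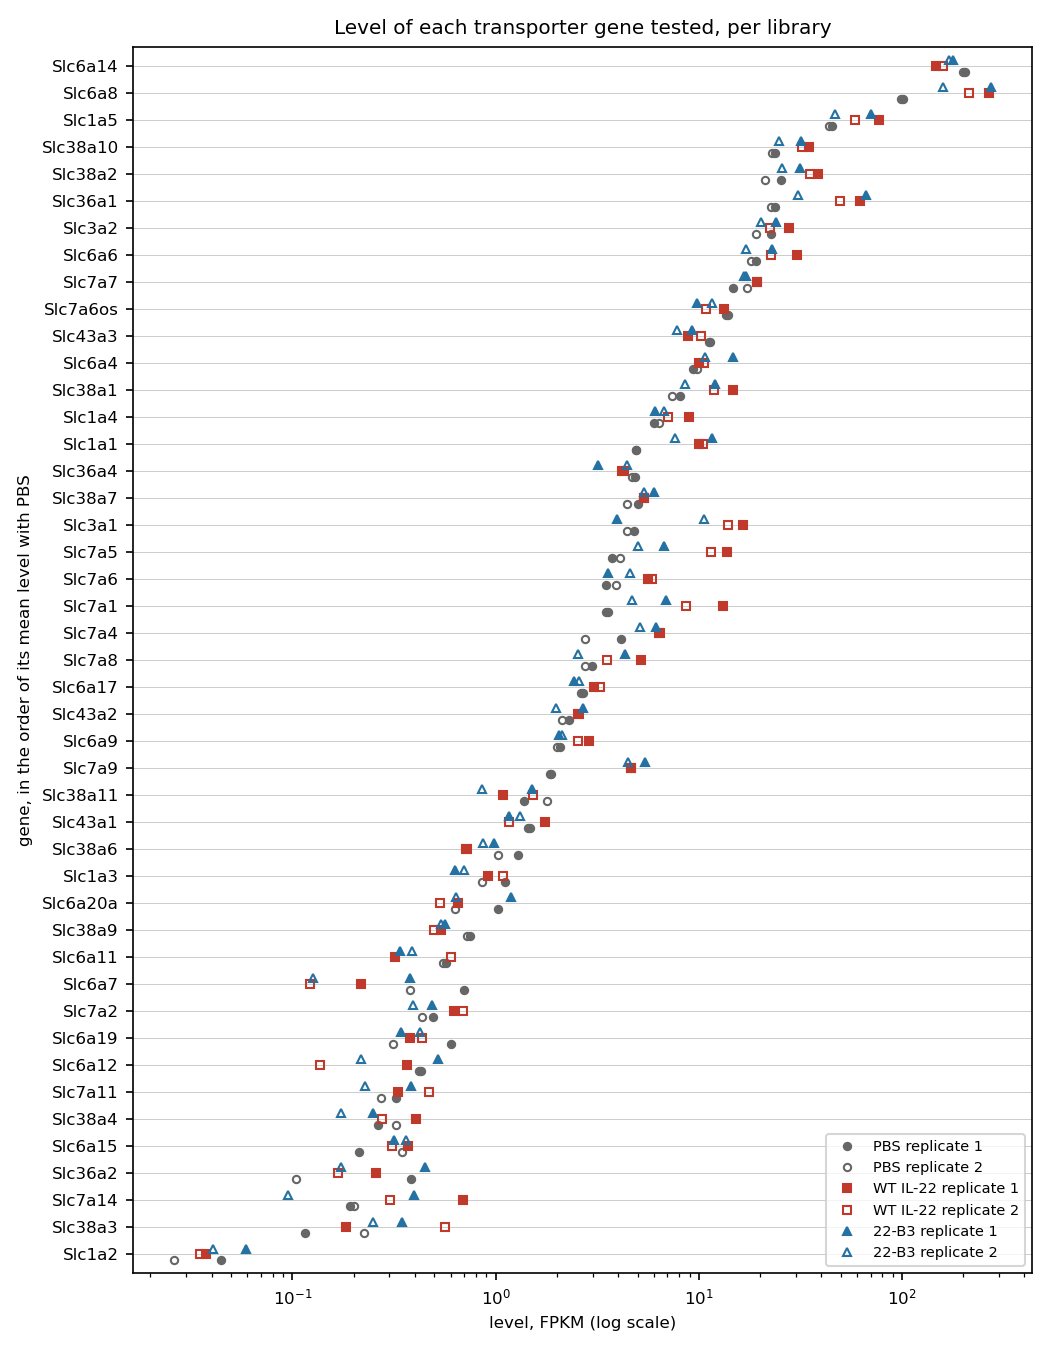
Level per gene length (FPKM, log axis) of the 45 tested genes in each of the 6 libraries, in the order of the PBS mean, with 1 colour and shape a treatment and filled or open points for replicates 1 and 2. Slc6a14 and Slc6a8 stand above all other genes in every library, and in the WT IL-22 libraries Slc6a8 stands above Slc6a14.

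With WT IL-22, 10 of the 45 tested genes rose (22.2%) and 0 fell. Over all tested genes, 9.9% were higher and 6.74% were lower, at an adjusted p under 0.05 in edgeR's quasi-likelihood test with Benjamini-Hochberg adjustment, which is the adjusted p and the threshold used below. At an unadjusted p under 0.05 the same test counted 14 members higher and 4 lower, beside 18.7% and 16.2% of all tested genes. The calls of DESeq2 were 12 higher and 1 lower among 59 members with a p-value, as it ran without that filter. Beside them stood 14.3% and 8.84% of the 13942 genes with an adjusted p. The median log2 change of the 45 was 0.22, against -0.01 over all tested genes. Of the 45, 29 lay above 0 and 16 below, beside 49% of all tested genes above 0. All 10 genes that rose had a mean of at least 1 FPKM with PBS. They cover most of the transport roles: the heteromeric exchangers (Slc3a1, Slc7a5, Slc7a9), cationic carriers and a relative (Slc7a1, Slc7a4), glutamate uptake (Slc1a1), creatine uptake (Slc6a8), proton-coupled transport (Slc36a1) and sodium-coupled glutamine uptake (Slc38a1, Slc38a2). In whole tissue, fewer cells of a type and less RNA per cell cannot be told apart, so each value is the level in the mixture.

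The start sites of these genes were read from RefSeq for the motifs of STAT factors (TTCNNNGAA), of the amino acid response element (TGATGNAA) and of the E-box bound by MYC and TFEB-type factors (CACGTG). Windows of 300 bases, from 250 before to 50 after a start, were at hand for 44 of the 62 genes, as 65 windows, and for 6 of the 10 genes raised by WT IL-22 (Slc1a1, Slc3a1, Slc7a1, Slc7a9, Slc36a1 and Slc38a2). Both strands were searched. The STAT letters were in 6.15% of the members' windows and 8.3% of all 32851 windows, the amino acid response element in 6.15% and 3.97%, and the E-box in 12.3% and 7.15%. The 4 member windows with the amino acid response element came from 3 genes, as overlapping windows of Slc7a7 share a site. Of the 8 members with an E-box, 4 were tested. Among the 6 raised genes with a window, Slc7a1 held the STAT letters, Slc36a1 held the E-box, and none held TGATGNAA. A match describes the letters and is no evidence of binding.

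The 4 windows below show a raised gene with each of the motifs found, a member that held 2 amino acid response elements without a call, and the member raised by both proteins. Matches are in capitals and the sequences run 5′ to 3′ along the gene (RefSeq, build GRCm38.p6). In Slc7a1 (chr5:148392766-148393065, minus strand) the STAT letters lie at -146 to -138 from an internal start, and the window of the upstream start had no match. Slc36a1 (chr11:55204090-55204389, plus strand) holds 2 E-boxes, at -31 to -26 and at -3 to 2. Slc7a11 (chr3:50443564-50443863, minus strand), whose level did not pass any test, holds STAT letters at -183 to -175 and amino acid response elements at -66 to -59 and, reversed, at -47 to -40. The window of Slc7a9 (chr7:35448842-35449141, plus strand) had none of the 3 motifs.
Slc7a1: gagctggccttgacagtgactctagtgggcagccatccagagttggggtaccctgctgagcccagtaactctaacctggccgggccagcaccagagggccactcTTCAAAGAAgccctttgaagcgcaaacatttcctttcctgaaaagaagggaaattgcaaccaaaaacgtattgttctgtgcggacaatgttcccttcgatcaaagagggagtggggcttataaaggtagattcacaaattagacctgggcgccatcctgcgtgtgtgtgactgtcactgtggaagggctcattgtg
Slc36a1: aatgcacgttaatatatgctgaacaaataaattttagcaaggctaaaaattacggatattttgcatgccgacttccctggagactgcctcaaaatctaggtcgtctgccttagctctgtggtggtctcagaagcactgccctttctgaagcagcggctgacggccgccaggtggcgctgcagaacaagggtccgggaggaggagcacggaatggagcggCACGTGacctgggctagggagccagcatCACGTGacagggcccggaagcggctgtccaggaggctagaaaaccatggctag
Slc7a11: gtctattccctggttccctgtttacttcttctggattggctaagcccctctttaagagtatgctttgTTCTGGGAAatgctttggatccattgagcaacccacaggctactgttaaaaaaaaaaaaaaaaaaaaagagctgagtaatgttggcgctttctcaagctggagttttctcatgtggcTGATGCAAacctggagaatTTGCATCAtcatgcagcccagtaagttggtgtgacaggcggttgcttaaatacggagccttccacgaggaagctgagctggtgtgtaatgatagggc
Slc7a9: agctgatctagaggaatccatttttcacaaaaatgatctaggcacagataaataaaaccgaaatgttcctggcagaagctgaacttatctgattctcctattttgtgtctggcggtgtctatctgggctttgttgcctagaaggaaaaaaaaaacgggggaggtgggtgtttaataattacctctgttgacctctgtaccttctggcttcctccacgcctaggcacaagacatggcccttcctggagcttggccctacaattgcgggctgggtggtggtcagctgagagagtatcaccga

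The smallest adjusted p was that of Slc7a5, the light chain that imports leucine and other large neutral amino acids (ENSMUSG00000040010, chr8:121881150-121907694 on the minus strand, mm10, the build of all gene positions here). It measured 13.0 and 14.8 CPM with PBS, 46.9 and 39.5 CPM with WT IL-22, and 23.1 and 18.8 CPM with 22-B3. Both WT IL-22 libraries were far above both PBS libraries, and both 22-B3 libraries lay between the groups without overlapping either. The log2 change with WT IL-22 was 1.64 (SE 0.178, 3.11-fold, adjusted p = 0.00166). It was the only member still called with WT IL-22 when the PBS libraries were summed to 1 library (adjusted p = 0.0334), and its call held in all 16 alternatives run (adjusted p from 1.33e-11 to 0.0423).

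The heavy chain that Slc7a5 needs, Slc3a2, was at 63.2 and 55.2 CPM with PBS, 75.8 and 61.6 CPM with WT IL-22, and 65.9 and 60.5 CPM with 22-B3. These groups overlapped, and the log2 change with WT IL-22 was 0.22 (95% interval -0.14 to 0.57, adjusted p = 0.355). Slc3a2 also carries Slc7a6, Slc7a7, Slc7a8, Slc7a10 and Slc7a11. Summed over these 6 light chains, FPKM went from 25.2 and 28.8 with PBS to 44.3 and 40.6 with WT IL-22 and to 32.2 and 29.2 with 22-B3. The share of Slc7a5 in that sum was 14.7% and 14.2% with PBS, 31.0% and 28.2% with WT IL-22, against 20.9% and 17.2% with 22-B3.

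Slc7a7, the basolateral exchanger that lets cationic amino acids out of epithelial cells, held the largest share of that sum in all 6 libraries, from 43.6% to 60.4%. Its own level was 31.2 and 38.2 CPM with PBS, 40.1 and 40.5 CPM with WT IL-22 and 35.6 and 38.03 CPM with 22-B3, and it did not pass the test (log2 change 0.22 with WT IL-22, adjusted p = 0.347). Slc7a8, a basolateral exchanger of neutral amino acids, was at 11.9 and 11.5 CPM with PBS and at 20.2 and 14.0 CPM with WT IL-22 (log2 change 0.55, adjusted p = 0.161). Slc7a11, which takes up cystine in exchange for glutamate, was low at 2.23 to 4.27 CPM in the 6 libraries (log2 change 0.37 with WT IL-22, 95% interval -0.37 to 1.11, adjusted p = 0.45).

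The second heteromer, Slc3a1 with Slc7a9, takes up cystine and cationic amino acids at the luminal membrane, and mutations in either gene cause cystinuria in humans. Slc7a9 (ENSMUSG00000030492, chr7:35449037-35466036, plus strand) was at 3.85 and 4.01 CPM with PBS, 9.39 and 9.51 CPM with WT IL-22, and 11.1 and 9.86 CPM with 22-B3. All 4 treated libraries were above both PBS libraries. Its log2 change was 1.27 with WT IL-22 (SE 0.198, 2.40-fold, adjusted p = 0.00649) and 1.41 with 22-B3 (SE 0.199, 2.66-fold, adjusted p = 0.0161).

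Slc3a1 (ENSMUSG00000024131, chr17:85028347-85064243, plus strand) was at 10.9 and 10.5 CPM with PBS and at 36.7 and 31.4 CPM with WT IL-22, a log2 change of 1.67 (SE 0.398, 3.18-fold, adjusted p = 0.0276). With 22-B3 it was at 8.92 CPM in replicate 1 and 25.8 CPM in replicate 2. Replicate 1 was thus below both PBS libraries and replicate 2 well above them, and the 22-B3 value depended on which was used. Against PBS the log2 change was 0.69 with both libraries (adjusted p = 0.382), 1.24 without replicate 1 (adjusted p = 0.00936) and -0.26 without replicate 2 (adjusted p = 0.389), with an adjusted p over the 16 alternatives of 0.00936 to 0.825. The summed CPM of 5 small-intestinal markers was also lowest in replicate 1 of 22-B3 (9.14) and highest in replicate 2 (15.1), against 11.9 to 12.0 with PBS and 11.3 to 13.3 with WT IL-22. Within that list only Alpi differed between the 22-B3 libraries in this way, at 2.52 and 8.35 CPM, against 6.21 and 5.62 CPM with PBS. Fabp6 was at 6.11 and 6.24 CPM in these libraries, above 4.73 and 5.57 CPM with PBS, and Sis, Lct and Apoa4 were at or near 0. The part of these markers in the Slc3a1 values was not tested.

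The FPKM ratio of light to heavy chain, Slc7a9 over Slc3a1, stood apart in that library: it was 0.389 and 0.422 with PBS, 0.283 and 0.335 with WT IL-22, 1.37 in replicate 1 of 22-B3 and 0.423 in replicate 2. Slc3a1 overlaps the gene Prepl on the opposite strand by 767 bases, and the strand setting of the counting was not given in the sources used here. Prepl itself was at 41.1 and 41.9 CPM with PBS and at 50.3 and 46.1 CPM with WT IL-22 (log2 change 0.22, adjusted p = 0.301).

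**Figure D2:**
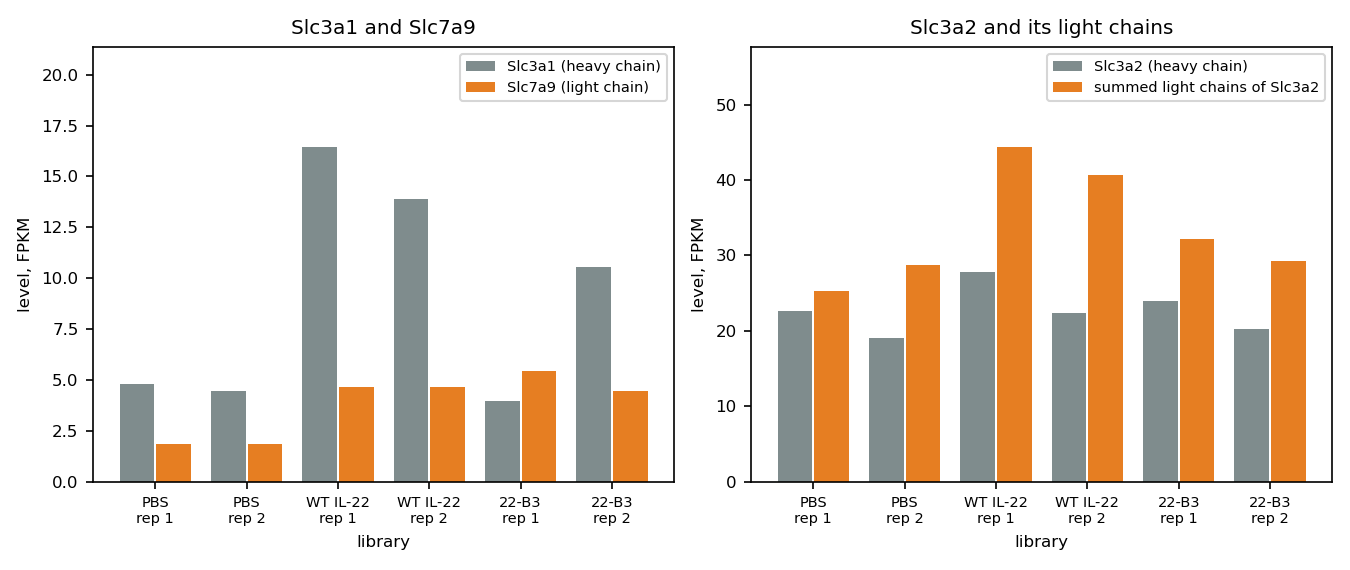
Level per gene length (FPKM) in each of the 6 libraries, as bars from 0, of Slc3a1 and its light chain Slc7a9 (left) and of Slc3a2 and the sum of its 6 light chains (right). Replicate 1 of 22-B3 is the only library with more Slc7a9 than Slc3a1, and the summed light chains of Slc3a2 are highest in the WT IL-22 libraries (44.3 and 40.6 FPKM).

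Among the cationic carriers, Slc7a1 (ENSMUSG00000041313, chr5:148327410-148399904, minus strand) is the main arginine and lysine importer of growing cells. Of the 6 raised genes with a window, it alone held the STAT letters, at an internal start. Slc7a1 was at 24.9 and 26.3 CPM with PBS, at 91.4 and 60.8 CPM with WT IL-22 and at 48.4 and 35.8 CPM with 22-B3. The groups did not overlap, and the order was WT IL-22 above 22-B3 above PBS. Its log2 change with WT IL-22 was 1.57 (SE 0.225, 2.97-fold, adjusted p = 0.00469). Slc7a4, a relative of these carriers by sequence (ENSMUSG00000022756, chr16:17572018-17576998, minus strand), was at 13.5 and 9.26 CPM with PBS, 20.2 and 20.7 CPM with WT IL-22 and 19.8 and 17.8 CPM with 22-B3. All treated libraries were above both PBS libraries, with a log2 change of 0.85 with WT IL-22 (SE 0.202, adjusted p = 0.0266). Slc7a4 lies within P2rx6 on the opposite strand over 4981 bases, and P2rx6 was at 1.46 to 3.49 CPM in the 6 libraries (log2 change -0.44 with WT IL-22, adjusted p = 0.367).

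Of the acidic amino acid carriers, only Slc1a1 passed the test among the 3 tested. It takes up glutamate and aspartate in gut and kidney epithelium (ENSMUSG00000024935, chr19:28835049-28913960, plus strand). It was at 18.5 and 19.1 CPM with PBS, 36.9 and 39.2 CPM with WT IL-22, and 43.1 and 30.8 CPM with 22-B3. Treated and PBS libraries did not overlap, while the treated groups overlapped each other. The log2 change with WT IL-22 was 1.02 (SE 0.184, 2.02-fold, adjusted p = 0.0106). The neutral exchangers of the same family did not pass. Slc1a5, which exchanges glutamine for other neutral amino acids, was at 126.3 and 126.5 CPM with PBS, 210.1 and 161.4 CPM with WT IL-22 and 192.8 and 139.8 CPM with 22-B3 (log2 change 0.56 with WT IL-22, adjusted p = 0.0809). Its treated libraries were all above its PBS libraries, and it was called higher with WT IL-22 under 5 of the 16 alternatives, among them DESeq2 (adjusted p = 0.0248). Slc1a4, the alanine, serine and cysteine exchanger, had a log2 change of 0.32 with WT IL-22 (adjusted p = 0.228).

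The order of the SLC6 genes with the highest levels differed between PBS and WT IL-22. Slc6a8 (ENSMUSG00000019558, chrX:73673150-73682502, plus strand), which imports creatine, a product of amino acid metabolism, was at 399.7 and 402.5 CPM with PBS, 1031 and 827 CPM with WT IL-22, and 1063 and 665 CPM with 22-B3. All treated libraries were above the PBS libraries, and the log2 change with WT IL-22 was 1.21 (SE 0.240, 2.32-fold, adjusted p = 0.0142). Slc6a14 (ENSMUSG00000031089, chrX:21714896-21742355, plus strand) was at 692.5 and 705.7 CPM with PBS, 486.5 and 533.4 CPM with WT IL-22, and 594.9 and 617.4 CPM with 22-B3.

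For Slc6a14 the 3 groups did not overlap, with PBS highest and WT IL-22 lowest, but the log2 change of -0.46 with WT IL-22 missed the threshold (95% interval -0.81 to -0.10, adjusted p = 0.0769). It was called lower under 6 of the 16 alternatives, among them upper-quartile scaling (adjusted p = 0.0445), DESeq2 (adjusted p = 0.0204) and the fits without either 22-B3 library; over all 16 its adjusted p ran from 0.0125 to 0.393. Over the 62 genes, the share of Slc6a14 in the summed FPKM was 34.7% and 35.2% with PBS, 16.9% and 21.0% with WT IL-22, against 21.0% and 27.1% with 22-B3. The share of Slc6a8 was 17.3% and 17.4% with PBS, 31.1% and 28.2% with WT IL-22, against 32.5% and 25.3% with 22-B3. The ratio of Slc6a8 to Slc6a14 thus went from 0.500 and 0.494 with PBS to 1.84 and 1.34 with WT IL-22, and it was 1.55 and 0.933 with 22-B3.

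The other SLC6 genes of the panel did not pass in any comparison in the fit reported. Slc6a6, the taurine transporter, was at 117.1 and 114.5 CPM with PBS, 182.4 and 137.8 CPM with WT IL-22 and 138.2 and 111.4 CPM with 22-B3 (log2 change 0.47 with WT IL-22, adjusted p = 0.0996). It was called higher with WT IL-22 under 4 of the 16 alternatives, among them the edgeR fit to the groups compared only (adjusted p = 0.0328). Slc6a4, the serotonin transporter, was at 25.9 and 28.1 CPM with PBS, 27.1 and 29.0 CPM with WT IL-22 and 40.3 and 31.6 CPM with 22-B3 (log2 change 0.41 with 22-B3, adjusted p = 0.243). Slc6a19 and Slc6a20a had log2 changes of -0.22 and -0.53 with WT IL-22, with 95% intervals of -1.13 to 0.69 and -1.44 to 0.38 (adjusted p = 0.73 and 0.38).

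Slc36a1 (ENSMUSG00000020261, chr11:55204350-55236330, plus strand) moves glycine, alanine and proline with protons, at the luminal membrane and out of lysosomes. Of the 6 raised genes with a window, it alone held E-boxes. It was at 124.5 and 122.8 CPM with PBS, 315.3 and 255.2 CPM with WT IL-22, and 343.8 and 171.0 CPM with 22-B3. Every treated library was above PBS, and the 22-B3 libraries lay on either side of the WT IL-22 libraries. The log2 change with WT IL-22 was 1.21 (SE 0.288, 2.31-fold, adjusted p = 0.0267). Its neighbours on chromosome 11 differ in level: Slc36a3 had at most 1 count in a library, and Slc36a2 was at 0.260 to 1.07 CPM.

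Slc38a1 and Slc38a2, which import glutamine, alanine and other small neutral amino acids with sodium, lie 44480 bases apart on chromosome 15. Slc38a1 (ENSMUSG00000023169, chr15:96571418-96642913, minus strand) was at 62.0 and 58.5 CPM with PBS, 110.1 and 90.0 CPM with WT IL-22, and 90.9 and 70.1 CPM with 22-B3, a log2 change of 0.73 with WT IL-22 (SE 0.172, adjusted p = 0.0253). Slc38a2 (ENSMUSG00000022462, chr15:96687394-96699698, minus strand) was at 116.5 and 100.7 CPM with PBS, 172.9 and 160.1 CPM with WT IL-22, and 142.8 and 125.8 CPM with 22-B3, a log2 change of 0.62 (SE 0.148, adjusted p = 0.0269). In both genes the treated libraries were all above PBS. Slc38a9, a lysosomal carrier that reports arginine to the growth kinase mTORC1, was at 6.63 and 6.61 CPM with PBS, 4.63 and 4.36 CPM with WT IL-22 and 4.88 and 5.07 CPM with 22-B3. Its treated libraries were all below PBS, and the log2 change of -0.56 with WT IL-22 did not pass (adjusted p = 0.0981).

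The facilitative carriers did not pass. Slc43a1 and Slc43a2, which let leucine and other large neutral amino acids through without a driving ion, had log2 changes of -0.05 and 0.16 with WT IL-22 (adjusted p = 0.917 and 0.536) and of -0.21 and 0.09 with 22-B3. Over all 45 tested genes, the log2 changes with WT IL-22 ran from -1.71 to 1.67. The lowest, chosen here for its rank, was that of Slc6a7, a proline carrier, at 2.31 and 1.3 CPM with PBS, 0.701 and 0.400 CPM with WT IL-22, and 1.23 and 0.445 CPM with 22-B3 (adjusted p = 0.0794 with WT IL-22).

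**Figure D3:**
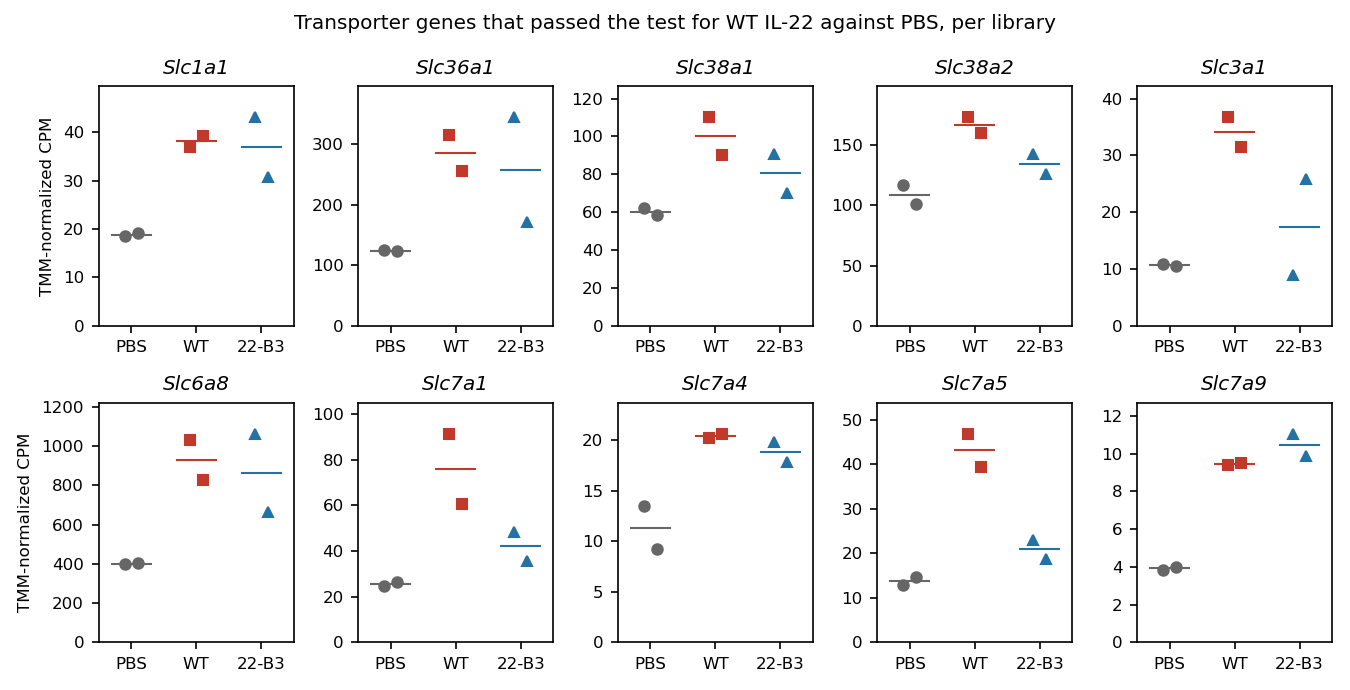
CPM in each of the 6 libraries for the 10 genes that were higher with WT IL-22 than with PBS, 1 panel a gene, with a linear axis from 0 and a line at each group's mean. The 2 WT IL-22 libraries are above both PBS libraries in all 10 panels, and the 22-B3 libraries are above both PBS libraries in all panels except that of Slc3a1, where replicate 1 is below them.

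With 22-B3, 1 of the 45 tested genes rose, Slc7a9 (2.22%), and 0 fell, beside 0.947% higher and 0.154% lower over all tested genes. The same test counted 9 members higher and 1 lower at an unadjusted p under 0.05, beside 11.5% and 6.74% of all tested genes. The calls of DESeq2 were 5 higher and 0 lower among 59 members, beside 4.84% and 1.09% of all genes. The comparisons share their PBS libraries, so their values stand side by side. For the other 9 genes raised by WT IL-22, the log2 changes with 22-B3 against PBS were 1.11 for Slc6a8 (adjusted p = 0.0741), 1.06 for Slc36a1 (adjusted p = 0.129), 0.97 for Slc1a1 (adjusted p = 0.0507) and 0.73 for Slc7a4 (adjusted p = 0.136). They were 0.72 for Slc7a1 (adjusted p = 0.163), 0.69 for Slc3a1, 0.59 for Slc7a5 (adjusted p = 0.154), 0.42 for Slc38a1 (adjusted p = 0.25) and 0.31 for Slc38a2 (adjusted p = 0.31).

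The 22-B3 libraries differed from each other in these genes. The median log2 difference of the 10 genes from the PBS mean was 0.87 in replicate 1 and 0.58 in replicate 2, against 1.29 and 1.05 in the WT IL-22 libraries. The 10 genes were picked by their call between these same WT IL-22 and PBS libraries. Their WT IL-22 differences are therefore high by that choice, and these medians cannot rank the proteins. Replicate 1 was above both PBS libraries in 9 of the 10 genes and at or above the lower WT IL-22 library in 5. Replicate 2 was above both PBS libraries in 10 and reached the lower WT IL-22 library in 1. These counts were not made over all genes raised by WT IL-22, so it is not known whether they are particular to transporters. Calls over all genes also moved with the library left out. Without replicate 2, 10 members were called higher with 22-B3 and 1 lower (Slc36a4), beside 8.72% and 5.24% of all genes. Without replicate 1, 2 were called higher (Slc3a1 and Slc7a9), beside 1.5%.

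**Figure D4:**
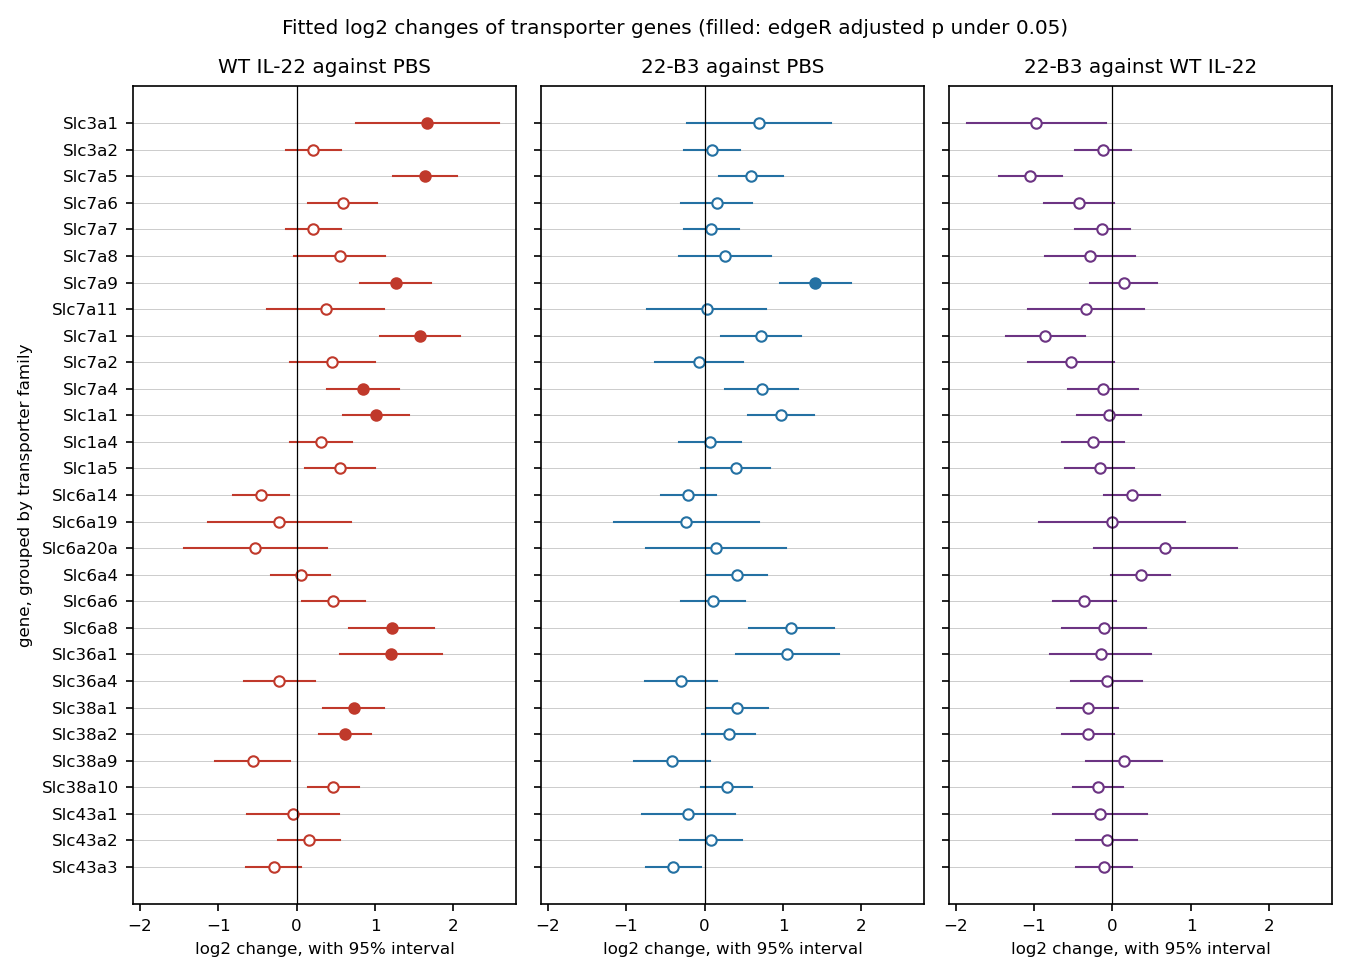
Fitted log2 change with its 95% interval for the panel of genes and other tested members of their families, with WT IL-22 against PBS (left), 22-B3 against PBS (middle) and 22-B3 against WT IL-22 (right). Filled points passed the test: 10 on the left, Slc7a9 alone in the middle and 0 on the right, where Slc7a5, Slc7a1 and Slc3a1 have intervals below 0.

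Set directly against WT IL-22, 22-B3 gave 0 higher and 0 lower members in edgeR, beside 0.032% higher and 0.0704% lower over all tested genes. At an unadjusted p under 0.05 there were 0 higher and 3 lower (Slc7a5, Slc7a1 and Slc3a1), beside 5.09% and 4.82% of all tested genes. The calls of DESeq2 were 0 higher and 2 lower among 59 members, beside 0.48% and 0.731% of all genes. Slc7a5 had a log2 difference of -1.05 (95% interval -1.44 to -0.65, adjusted p = 0.0965), and both 22-B3 libraries were below both WT IL-22 libraries. For Slc7a1 it was -0.86 (95% interval -1.35 to -0.36, adjusted p = 0.27), again with no overlap. DESeq2 called both (adjusted p = 0.000491 for Slc7a5 and 0.0211 for Slc7a1), with an adjusted p over the 16 alternatives of 0.000491 to 0.357 for Slc7a5 and of 0.0183 to 0.8 for Slc7a1.

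For the other raised genes with libraries on 1 side of PBS, the fit to all 6 libraries detected no difference between the proteins. This holds at this number of libraries, and the intervals set the limit. The log2 difference between 22-B3 and WT IL-22 was 0.15 for Slc7a9 (95% interval -0.28 to 0.57), -0.04 for Slc1a1 (-0.45 to 0.37), -0.11 for Slc6a8 (-0.64 to 0.43), -0.15 for Slc36a1 (-0.79 to 0.50) and -0.12 for Slc7a4 (-0.57 to 0.33). Slc38a1 and Slc38a2 lay at -0.31 and -0.31 (-0.70 to 0.07 and -0.64 to 0.02). The difference of Slc36a1 moved with the libraries used: over the 16 alternatives it ran from -0.74, without replicate 1 of 22-B3, to 0.27. For Slc3a1, the difference of -0.97 (-1.86 to -0.09) hung on the library of 22-B3 used: it was -1.93 without replicate 2 (adjusted p = 0.00448) and -0.40 without replicate 1 (adjusted p = 0.191), with an adjusted p over the 16 alternatives of 0.00448 to 0.9. A median log2 difference of -0.13 was found over the 45 tested genes, against 0.00 over all. Of the 45, 12 lay above 0 and 33 below, beside 50.3% of all tested genes above 0.

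Genes that act around these carriers changed in both directions with WT IL-22. Their calls stand beside 9.9% higher and 6.74% lower over all tested genes. Of 23 genes of the ATF4 amino acid response, 5 were higher and 2 lower, with a median log2 change of 0.12. The 3 with the smallest p were Aldh18a1, the first enzyme of proline synthesis, Asns, asparagine synthetase, and Mthfd2, a mitochondrial folate enzyme. Aldh18a1 was at 38.7 and 37.7 CPM with PBS, 92.6 and 79.9 CPM with WT IL-22 and 61.6 and 55.9 CPM with 22-B3 (log2 change 1.18 with WT IL-22, adjusted p = 0.00233). Asns was at 28.9 and 29.3 CPM with PBS, 72.3 and 88.5 CPM with WT IL-22 and 45.8 and 61.6 CPM with 22-B3 (log2 change 1.47, adjusted p = 0.00248). Mthfd2 was at 8.53 and 7.13 CPM with PBS, 27.5 and 20.3 CPM with WT IL-22 and 15.8 and 17.3 CPM with 22-B3 (log2 change 1.61, adjusted p = 0.00278). In each of the 3 the 22-B3 libraries lay between the other groups, and none passed with 22-B3 (adjusted p = 0.0845, 0.0659 and 0.0507).

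Of 10 glutathione and NRF2 genes, 2 were higher and 2 lower with WT IL-22, with a median log2 change of 0.18. Gsr, glutathione reductase, rose with both proteins, from 127.2 and 118.1 CPM with PBS to 239.3 and 234.8 CPM with WT IL-22 (log2 change 0.95, adjusted p = 0.0052) and 216.4 and 236.3 CPM with 22-B3 (log2 change 0.88, adjusted p = 0.0247). Txnrd1, thioredoxin reductase, rose with WT IL-22 by a log2 change of 0.63 (adjusted p = 0.0299), while the quinone reductase Nqo1 fell by 0.87 (adjusted p = 0.0181).

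Of 14 tested other amino acid and peptide carriers and partners, 1 was higher and 2 lower with WT IL-22 (median log2 change -0.19). Slc16a10, which lets aromatic amino acids out of cells, had a log2 change of 0.71 (adjusted p = 0.0447). Slc25a38, the mitochondrial glycine carrier, fell by 0.68 (adjusted p = 0.0451). Of 18 tested genes of amino acid sensing by mTORC1, 0 were higher and 3 lower with WT IL-22 (median log2 change -0.24). In edgeR, 6 of the 18 had an unadjusted p under 0.05, beside 5458 of all 15628 tested genes. Sesn1, of the sestrin family of leucine sensors, was lower at -0.84 (adjusted p = 0.0109). Lamtor5 and Lamtor3, subunits of the lysosomal anchor, were lower at -0.80 (adjusted p = 0.0235) and -0.67 (adjusted p = 0.0497). With 22-B3 against PBS, Gsr was the only gene called in the 4 lists, beside 0.947% higher and 0.154% lower over all tested genes. At an unadjusted p under 0.05 in edgeR there were 6, 4, 2 and 1 genes, in the order above, beside 2845 of all 15628. The comparison of 22-B3 with WT IL-22 gave 0 calls in all 4 in edgeR, beside 0.032% higher and 0.0704% lower. There, 9, 0, 2 and 5 genes had an unadjusted p under 0.05, in the order above, beside 1548 of all 15628.

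Other tissue markers changed as well. Their calls with WT IL-22 stand beside 9.9% higher and 6.74% lower over all tested genes. The summed CPM of 6 smooth muscle markers was 12350 to 12480 with PBS, 5985 to 8619 with WT IL-22, and 8521 and 10670 in the 22-B3 libraries, and 3 of the 6 were lower with WT IL-22. Of 3 cell division genes, all 3 were higher with WT IL-22, with sums of 134 to 141 with PBS, 387 to 428 with WT IL-22, and 335 and 266 in replicates 1 and 2 of 22-B3. With 22-B3 against PBS, 2 of these 3 were called higher, beside 0.947% of all tested genes. The 6 colonocyte markers summed to 5213 to 5350 CPM with PBS, 4672 to 5575 with WT IL-22 and, with 22-B3, to 5037 and 5823 (1 higher and 1 lower with WT IL-22). The 5 goblet cell markers summed to 8854 to 9193, 6399 to 6804, and 5721 and 6793 CPM in that order, with 1 called lower with WT IL-22. Its members differed: with WT IL-22, Zg16 went from 4781 and 5020 to 2456 and 3053 CPM, and Tff3 from 1481 and 1442 to 559 and 624. Fcgbp went from 1899 and 2043 up to 2353 and 2508 CPM, Muc2 from 688 and 684 to 1028 and 618, and Clca1 overlapped at a low level. Each of the other marker lists had at most 1 gene called higher or lower with WT IL-22. Among them, 3 adipocyte markers summed to 59.3 to 64.7 CPM with PBS, 24.7 to 38.9 with WT IL-22, and 51.7 and 13.8 in replicates 1 and 2 of 22-B3. For 4 B and plasma cell markers the sums were 40.9 to 43.1, 21.8 to 28.4, and 30.3 and 11.8 CPM in that order. Both lists were lowest in replicate 2 of 22-B3. The part of these markers in the changes of the transporters was not tested.

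The PBS pair bore on most calls. With the PBS libraries summed into 1, as a guard against the closeness of that pair, 1 member (Slc7a5) was higher with WT IL-22 and 0 with 22-B3, beside 0.771% and 0.0123% of 16209 genes tested. Without PBS replicate 1 or 2, the count with WT IL-22 was also 1 in each case, beside 0.742% and 0.664% of all genes. It was 3 without WT IL-22 replicate 1 and 6 without replicate 2, beside 2.16% and 5.95%, so the calls over all genes became fewer as well. The call of Slc7a9 with 22-B3 held in 12 of the 16 alternatives and was lost with the PBS libraries summed, without either of them, and with limma on FPKM without a filter (adjusted p from 0.000239 to 0.277). With WT IL-22 against PBS, none of the 10 genes changed direction in any of the 16 alternatives. There the log2 change of Slc7a5 stayed between 1.47 and 1.74, and that of Slc7a1 between 1.22 and 1.81.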

How the data were processed

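RNA from whole colon was sequenced in 6 libraries, 2 for each of 3 groups. Alignment used STAR 2.5 and build mm10, as the submitters' processing notes list them. Counter, annotation and strand setting are not given in the sources used here; overlapping genes cannot be separated. The deposited counts are unnormalized whole reads per gene, per the file headers. FPKM values deposited by the authors equalled those counts scaled by gene length and column total (largest relative deviation 4.97e-12). FPKM was used only for levels between genes and as an alternative.

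Counts were tested with edgeR 4.0.16 (R 4.3.3) after filterByExpr and TMM scaling. The 3 group means were fitted over the 6 libraries with robust quasi-likelihood dispersion, and p-values were adjusted over all 15628 tested genes in each comparison. The threshold was an adjusted p of 0.05. Each SE is the size of the log2 change over the root of F, and intervals cover 95%. Floors of 3 counts cover counting error only. The script was tested on simulated data. Alternatives used DESeq2 1.42.0 and limma 3.58.1.

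The members and the lists were chosen with earlier results of these data known. The text names every member that passed, a panel of 22 genes whatever their result, and the 3 members with the smallest p of each of 4 pathway lists; genes named for an overlap, a range or a call in an alternative were picked after their values were seen. The result of 1 gene of these lists is not reported here.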

Additional observations from a re-analysis of the deposited data

How the results depend on the processing

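Counts of members called are given as higher and lower. DESeq2 and the fits without a low-count filter gave a p-value for 59 members, so their counts are not out of 45. In the fit reported, WT IL-22 against PBS gave 10 and 0, 22-B3 against PBS 1 and 0, and 22-B3 against WT IL-22 0 and 0. Of 16 alternatives, no called member changed sign. With WT IL-22 the higher count fell to 1 with PBS libraries summed and to 3 with limma on log2(FPKM + 1) without a filter. It was 15 in the fit to the groups compared only (18.1% of all genes), and it also moved with a library left out. Limma without a filter called 3.17% of all genes higher. The lower count with WT IL-22 was 2 with upper-quartile scaling (Slc6a14 and Slc38a6) and 1 with DESeq2, beside 10% and 8.84% of all genes. It was 2 in the fit to the groups compared only (Slc6a14 and Slc6a7) and 2 with the replicate block, beside 14.7% and 12.8%. It also moved with a library left out. Upper-quartile scaling moved the median log2 change of all genes to -0.13 with WT IL-22 and -0.10 with 22-B3. With 22-B3 against PBS the higher count was 3 without the low-count filter, 5 with DESeq2 and 6 with the replicate block. The shares of all genes beside these were 1.58%, 4.84% and 5.04%. The higher count was 0 with limma without a filter, beside 0.121%. It ranged from 0 to 10 with a library left out, and the lower count from 0 to 1. Against WT IL-22 the lower count was 1 without the low-count filter (Slc7a5), 2 with DESeq2 and 2 with the replicate block. The shares of all genes beside these were 0.291%, 0.731% and 0.717%. The lower count also moved with a library left out. The cause of these differences was not tested. Slc7a5 kept its call with WT IL-22 in 16 alternatives, Slc7a1 and Slc7a9 in 13, Slc1a1, Slc38a1 and Slc6a8 in 11, Slc36a1, Slc38a2 and Slc7a4 in 10 and Slc3a1 in 8.

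Replicate numbers shared by the groups gave correlations of deviations of 0.04, 0.04 and 0.21 between groups, so the numbers were not taken to pair the libraries. With the replicate block the counts were 13 and 2, 6 and 0, and 0 and 2 in the order above. The shares of all genes beside these were 16% and 12.8%, 5.04% and 1.77%, and 0.454% and 0.717%. Slc3a1 lost its call with WT IL-22 under the block (adjusted p = 0.134), as it did without the low-count filter (adjusted p = 0.124). With 2 libraries a group, leaving out 1 assumes that the lone library varies like the other groups.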
